A study of Canis lupus familiaris with 4 samples.

Results

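The 10 epithelial junction genes described here are CDH1, CDH3, CLDN1, CLDN3, CLDN4, CLDN7, OCLN, TJP1, DSP and JUP, which were found by symbol in the annotation of the array. The list was chosen with earlier results of these data known. They are 10 of the 13479 gene symbols on the array and have 19 of its 43603 probes, and all 19 were well above background in every channel and entered the tests. RNA came from the canine mammary cancer cell lines P114 and CMT-U27, from a stem-like fraction sorted by flow cytometry as positive for Sca1, EpCAM and CD44. The cells of each line were kept in serum-containing medium either alone (single culture) or together with tumour-associated macrophages (co-culture), and both cultures were taken at day 3. Each of the 4 arrays held the single culture of a line in 1 dye and its co-culture in the other, with the dyes exchanged between the 2 arrays of the line. The labels call the arrays of a line biological replicates but do not say that they held separate cultures or extracts, and p-values then measure only the spread between arrays, which may be technical. All groups share the sort, and no unsorted cells were measured. The labels do not say how the cells were parted from the macrophages before RNA was taken.

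Epithelial cells are held together by several junctions that lie along their sides. In the adherens junction, cadherins bind the same cadherin on the next cell and are tied to actin by catenins. In the tight junction, claudins and occludin seal the space between cells and scaffold proteins hold them in place, while in the desmosome the plaque proteins desmoplakin and plakoglobin link desmosomal cadherins to keratin filaments. Loss of E-cadherin and of claudins is a textbook mark of the shift from an epithelial to a mesenchymal state, and in mammary epithelium transcription factors of the SNAI and ZEB families are known to repress these genes.

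Probes of CLDN1, CLDN4, CLDN7, DSP and CDH1 are printed from the scanner files, 5′ to 3′, since the claudins and the cadherins are families of related genes and a probe can report a gene only if its letters are its own. Capitals mark the longest run of letters that the probe shares with a probe of another of the 10 genes.
CLDN1: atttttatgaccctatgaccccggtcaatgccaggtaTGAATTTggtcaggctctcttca
CLDN4: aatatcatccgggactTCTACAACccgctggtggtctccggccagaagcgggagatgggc
CLDN7: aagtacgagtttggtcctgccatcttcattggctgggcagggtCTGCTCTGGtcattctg
DSP: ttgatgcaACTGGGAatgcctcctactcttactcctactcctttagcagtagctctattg
CDH1: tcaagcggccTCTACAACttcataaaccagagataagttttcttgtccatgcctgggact
The shared runs are 7 letters in CLDN1 and DSP, 8 in CLDN4 and CDH1 and 9 in CLDN7, of 60 letters each. Outside the 19 probes of the 10 genes, no probe of the array shares 20 letters in a row with any of them (0 for each). Probes were compared only with other probes and not with transcripts, so this cannot show that a probe reports only its own gene. On the assembly named in the files, CanFam3.1, these probes lie at chr34:22305700-22307429 (CLDN1, minus strand), chr6:6493663-6493722 (CLDN4, minus strand), chr5:32224315-32224470 (CLDN7, minus strand), chr35:7523977-7524036 (DSP, plus strand) and chr5:80784502-80784561 (CDH1, minus strand). The CLDN1 and CLDN7 probes are placed over 1730 and 156 bases of the genome, more than their own 60 letters. The CDH1 sequence is that of the dimmest of 3 CDH1 probes.

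A level below is the normalized log2 intensity of a channel, and a line difference is the level in P114 minus that in CMT-U27. Each gene is shown by its brightest probe, and probes of different genes are not set against each other in level. P114 replicate 1 stood apart, with 89.4% of its Cy3 spots and 91.7% of its Cy5 spots well above background, where the channels of the other arrays had 57.9% to 65.7%. Saturated spots numbered 0 on every array. Over the 28692 probes tested, 1999 were higher and 2362 lower in P114 by limma's separate-channel fit at a Benjamini-Hochberg adjusted p under 0.05, and the split was 3946 higher and 989 lower when ratios were centred on the median and not by loess. Both P114 arrays were scanned in 1 session and both CMT-U27 arrays in another, so line and scan session cannot be told apart. In bulk RNA, fewer cells that express a gene and less RNA per cell cannot be told apart either.

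**Figure D1:**
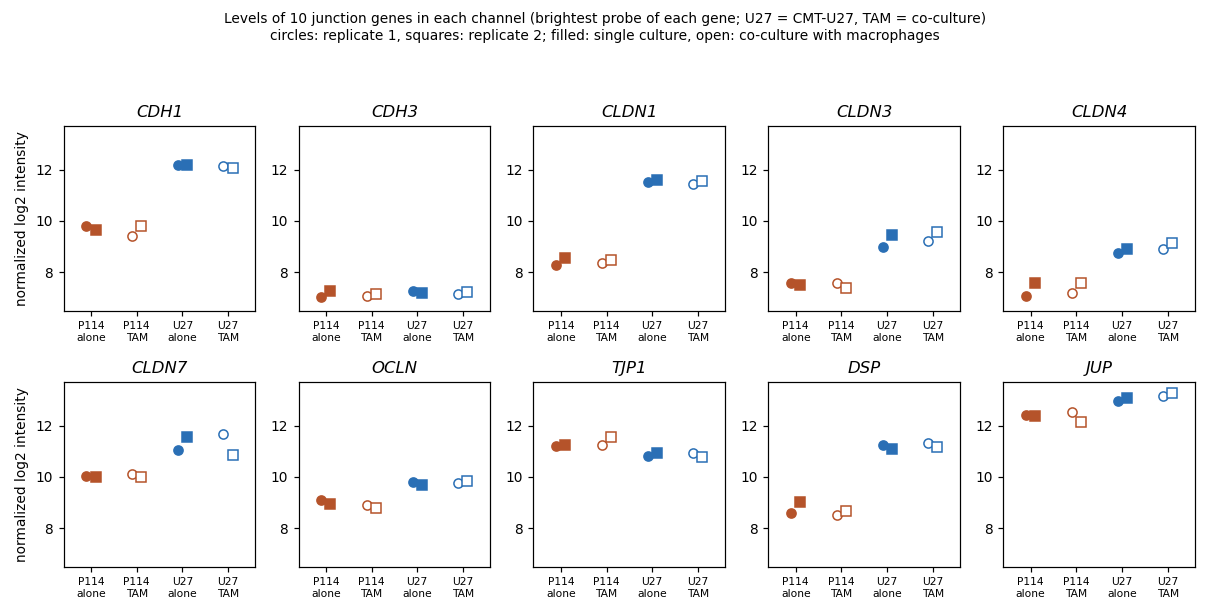
Normalized log2 intensity (y axis) of the brightest probe of each of the 10 genes in the 8 channels, with P114 in orange and CMT-U27 in blue, single culture filled and co-culture open, replicate 1 as circles and replicate 2 as squares. CDH1, CLDN1 and DSP lie more than 2 log2 units lower in P114 than in CMT-U27 in both cultures, CDH3 lies between 7.04 and 7.26 in every channel, and TJP1 alone is higher in P114, by this probe and not by its other probe.

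In single culture, 5 of the 10 genes were lower in P114 than in CMT-U27 and none was higher by the test over all probes. The 5 were CDH1, CLDN1, CLDN3, CLDN4 and DSP, with differences between -1.52 and -3.16. The background over 10545 genes by their brightest probe was 9.98% lower and 7.62% higher, or 17.6% in either direction. By probe, 6 of the 19 were lower and 0 higher, beside 8.23% lower, 6.97% higher and 15.2% in either direction over all tested probes. Counted by sign, 9 of the 10 genes had lower values in P114, beside 5677 of all 10545 genes, with differences rounded to 2 decimals. The median difference of the 10 genes was -1.41, where the median over all genes was -0.04. In 15 of the 19 probes both P114 levels lay below both CMT-U27 levels, a pattern that 37.6% of all tested probes showed, and in 1 both lay above, as in 33.4%.

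CDH1 encodes E-cadherin, the cadherin of epithelial adherens junctions. Its level was 9.78 and 9.66 in P114 and 12.18 and 12.18 in CMT-U27. The lines did not overlap, and the difference was -2.46 ± 0.29 (SE, n = 2 arrays a line; limma adjusted p = 0.00481), a 5.50-fold lower level in P114. Compared within a dye, the difference was -2.41 in Cy5 and -2.51 in Cy3. The dimmest CDH1 probe, whose sequence is printed above, gave 7.01 and 7.16 in P114 against 8.01 and 8.06 in CMT-U27, or -0.95 ± 0.17 (adjusted p = 0.0171). The remaining CDH1 probe gave -1.84 ± 0.55 and missed the threshold (adjusted p = 0.0851). All 3 probes had the same direction, at sizes from -2.46 to -0.95. The brightest of them is assigned to CDH1 only in the later annotation carried by the CMT-U27 files, and the other 2 in all 4 files. With the scanner software's own processed signals the brightest probe gave -2.47 with an adjusted p of 0.0581.

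CDH3 encodes P-cadherin, which basal and myoepithelial cells of the mammary gland express. Its level was 7.04 and 7.25 in P114 and 7.26 and 7.18 in CMT-U27, and the lines overlapped. The difference was -0.07 ± 0.13, with a 95% confidence interval from -0.39 to 0.25 (adjusted p = 0.764). CDH1 and CDH3 are near neighbours on chromosome 5, with 86.8 kb between their nearest probes and 1 gene model, LOC100686190, between them in the annotation of RefSeq (assembly UU_Cfam_GSD_1.0). The confidence interval of the CDH1 difference at its brightest probe ran from -3.17 to -1.75 and did not reach that of CDH3. CDH3 was dim, with a mean log2 intensity of 7.17 over the arrays, near the 6.96 of GRHL2, which was too dim to be tested. How large a difference could show at such an intensity was not tested. With the processed signals CDH3 gave -0.85 (adjusted p = 0.303).

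Of the claudins, which form the tight junction strands, CLDN1 had the largest difference of the 10 genes. Its level was 8.26 and 8.54 in P114 and 11.52 and 11.58 in CMT-U27. No P114 channel came near a CMT-U27 channel, and the difference was -3.16 ± 0.15 (adjusted p = 0.000347), a level 8.91-fold lower in P114. Ordered from the most negative difference, CLDN1 had rank 33 of 10545 genes. Within a dye it was -3.33 in Cy5 and -2.99 in Cy3.

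CLDN3 and CLDN4 encode claudins that serve as receptors for a clostridial toxin and are abundant in mammary epithelium. CLDN3 stood at 7.59 and 7.48 in P114 and at 8.97 and 9.43 in CMT-U27, a difference of -1.66 ± 0.22 (adjusted p = 0.00725; 3.16-fold lower). CLDN4 stood at 7.05 and 7.56 in P114 and at 8.76 and 8.89 in CMT-U27, a difference of -1.52 ± 0.19 (adjusted p = 0.00586; 2.87-fold lower). In both genes the lines did not overlap. The genes are adjacent on chromosome 6, with 41.4 kb between their probes and 0 gene models between them in the RefSeq table. Their size changed with the scanner software's processed signals, where CLDN3 gave -2.83 (adjusted p = 0.0443) and CLDN4 gave -3.71 (adjusted p = 0.0637).

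CLDN7, a claudin found along the whole side of epithelial cells, had P114 levels of 10.03 and 9.99 and CMT-U27 levels of 11.05 and 11.58. The lines did not overlap, but the difference of -1.30 ± 0.86 did not pass the test (adjusted p = 0.387; 95% confidence interval from -3.44 to 0.83). Its Cy5 over Cy3 log2 ratio was 0.64 and 0.74 on the CMT-U27 arrays and -0.09 and 0.01 on the P114 arrays, so in CMT-U27 it followed the dye and not the culture. With a dye term fitted for each line, an alternative added after this was seen, the difference was -0.94 (adjusted p = 0.00134), and under that fit 9 of the 10 genes passed, where 10429 of all tested probes did.

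The other members of the tight junction had smaller differences. OCLN encodes occludin, a strand protein with 4 membrane spans like the claudins. Its level was 9.10 and 8.96 in P114 and 9.79 and 9.67 in CMT-U27, and the difference was -0.70 ± 0.20 (adjusted p = 0.0712). The other OCLN probe, with 5 spots an array, gave -0.21 ± 0.14 (adjusted p = 0.378). In the co-culture channels the brightest OCLN probe gave -0.96 and passed (adjusted p = 0.029). TJP1 encodes ZO-1, the scaffold under the strands. Its level was 11.22 and 11.23 in P114 and 10.80 and 10.92 in CMT-U27, and the difference was 0.37 ± 0.13 (adjusted p = 0.128). The other TJP1 probe had the opposite sign, at -0.32 ± 0.17 (adjusted p = 0.273), so no direction is given for TJP1.

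DSP and JUP encode desmoplakin and plakoglobin, and plakoglobin is also found in adherens junctions. DSP stood at 8.59 and 9.01 in P114 and at 11.26 and 11.11 in CMT-U27. Every P114 channel was below every CMT-U27 channel, with a difference of -2.38 ± 0.22 (adjusted p = 0.00238; 5.22-fold lower), or -2.52 in Cy5 and -2.25 in Cy3. JUP stood at 12.42 and 12.38 in P114 and at 12.97 and 13.10 in CMT-U27. The JUP difference was -0.64 ± 0.25 and did not pass (adjusted p = 0.164). The 5 other JUP probes ranged from -0.31 to -0.10, and none of them passed. The nearest of these shares 52 bases with the brightest, so the pair is not independent, and both are assigned to JUP only in the later annotation. DSP and JUP act in the same plaque, and their confidence intervals, from -2.93 to -1.83 and from -1.27 to -0.01, did not meet.

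**Figure D2:**
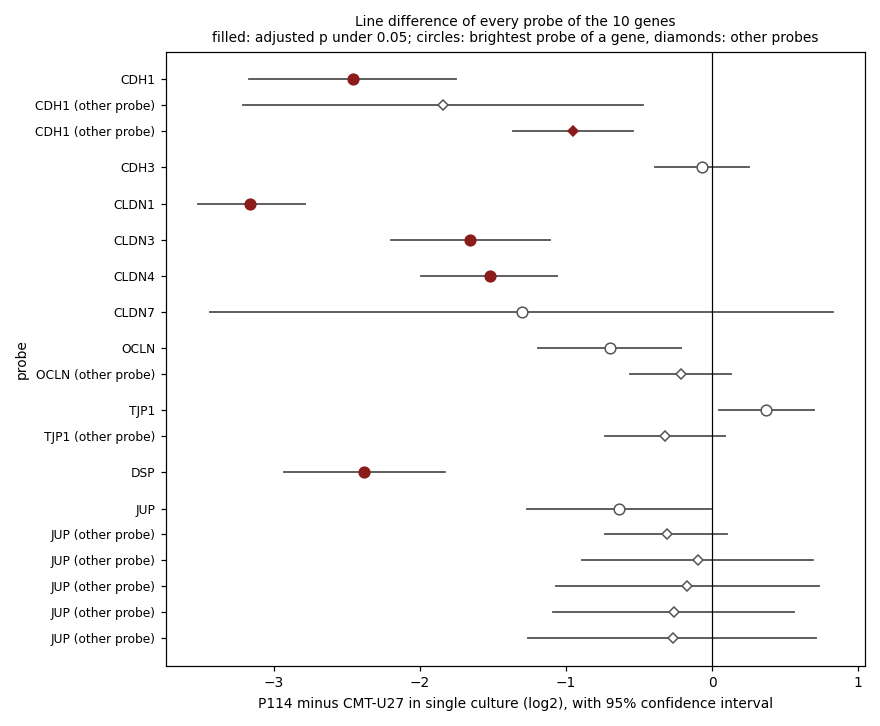
Difference between the lines in single culture (x axis, P114 minus CMT-U27, log2) for each of the 19 probes, with its 95% confidence interval; circles are the brightest probe of a gene, diamonds its other probes, and filled symbols have an adjusted p under 0.05. The filled symbols are CLDN1 (-3.16), CDH1 (-2.46 and -0.95), DSP (-2.38), CLDN3 (-1.66) and CLDN4 (-1.52), and the widest interval is that of CLDN7.

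The line differences were of like size in co-culture, whose channels share arrays with the single cultures and so are not an independent measurement. There CLDN1 gave -3.08, DSP -2.67, CDH1 -2.49, CLDN3 -1.91 and CLDN4 -1.62, and 7 of the 10 genes passed, TJP1 as higher in P114 and the other 6 as lower, beside 4431 of 28692 probes. Over 17 alternative settings the brightest probe of each of the 10 genes kept its sign. CLDN1 ranged from -3.86 to -2.57, CDH1 from -2.63 to -1.92 and DSP from -2.74 to -1.83. With no normalization between arrays 0 of the 10 genes passed, and 0 of all 28692 probes did (smallest adjusted p = 0.0807). CLDN1 then gave -3.25 with an adjusted p of 0.161 and CDH1 gave -2.48 with an adjusted p of 0.923.

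Other genes of the junctions were taken from lists by function. Of 10 tested genes of the desmosome, 4 were lower in P114 and 0 higher. They were the desmosomal cadherins DSG3 (-3.13 ± 0.21, adjusted p = 0.000909), DSC3 (-2.12 ± 0.16, adjusted p = 0.00121) and DSC2 (-1.54 ± 0.25, adjusted p = 0.0142), and PERP, a membrane protein of the desmosome (-2.17 ± 0.12, adjusted p = 0.000562). DSG2 (-0.54), PKP3 (-0.81) and PKP2 (-0.17) did not pass, and the median of the list was -0.68. Of 20 further tight junction genes, 6 were lower and 1 was higher, with a median of -0.29. The cytoplasmic plaque protein cingulin (CGN) stood at -3.77 ± 0.17 (adjusted p = 3e-04), while its other probe gave -1 ± 0.2 (adjusted p = 0.0254). Its relative paracingulin (CGNL1), also called lower, had 6.95 and 7.04 in P114, well above background on 1 of 2 arrays, and 9.92 and 9.89 in CMT-U27, and the size of its difference ranged from -6.86 to -2.23 over the settings. The polarity kinase PRKCZ was also lower (-2.06 ± 0.14, adjusted p = 0.000916), and the polarity scaffold MPP5 was the higher gene (0.90 ± 0.14, adjusted p = 0.0131).

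The adherens junction partners went both ways. Of 9 tested, 3 were higher in P114 and 1 was lower, with a median of 0.11. CDH2, which encodes N-cadherin, was 12.01 and 12.00 in P114 and 7.18 and 7.21 in CMT-U27, a difference of 4.81 ± 0.14 (adjusted p = 0.000134). Its other probes gave 3.04 and 0.96 and were not well above background in CMT-U27. CDH13, a cadherin anchored by lipid and also called higher, had 10.38 and 10.59 in P114 and 7.14 and 7.12 in CMT-U27, where 1 of 2 arrays was well above background. Its difference ranged from 3.06 to 6.03 over the settings. CTNNA1, the alpha-catenin that ties cadherins to actin, stood at 2.49 ± 0.15 (adjusted p = 0.000658), and its other probes gave 1.48 and 1.27. The lower gene was MLLT4, which encodes the nectin-bound protein afadin (-0.99 ± 0.16, adjusted p = 0.0138). CTNNB1, the beta-catenin, gave -0.16 ± 0.12 (adjusted p = 0.451), and its sign changed with median centring and with no normalization between arrays. CTNND1 and F11R were not analysed here.

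Gap junction genes, whose connexins form channels between cells, went both ways. GJB2 was lower in P114 (-3.07 ± 0.19, adjusted p = 0.000778), and GJA1 (0.77 ± 0.13, adjusted p = 0.0145) and GJB5 (0.73 ± 0.15, adjusted p = 0.0264) were higher.

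Of 14 tested regulators of junction genes, 5 were lower and 2 were higher in P114. SNAI2, the repressor Slug, stood at 10.45 and 10.44 in P114. In CMT-U27 it was not well above background in single culture (0 of 2 arrays) but was in co-culture (2 of 2). The levels there hardly differed, at 6.98 and 7.07 in single culture and 7.05 and 7.10 in co-culture. Its co-culture over single culture log2 ratios in CMT-U27 were 0.07 and 0.03, and this change was not called. SNAI2 was called higher in P114 (adjusted p = 0.000297), with a difference that ranged from 3.09 to 7 over the settings. ZEB1, another repressor of CDH1, stood at 8.81 and 9.06 against 7.70 and 7.51, or 1.33 ± 0.16 (adjusted p = 0.0054), while its other probes gave 1.19 (adjusted p = 0.083) and 0.17 (adjusted p = 0.565). The epithelial factor EHF had 6.98 and 6.85 in P114, well above background on 1 of 2 arrays, and 12.23 and 12.16 in CMT-U27. It was called lower, with a difference that ranged from -10.08 to -4.50 over the settings. ESRP1 and ESRP2, splicing factors of epithelial cells, stood at -2.31 ± 0.18 (adjusted p = 0.00143) and -1.10 ± 0.20 (adjusted p = 0.0195), GRHL1 at -1.46 ± 0.19 (adjusted p = 0.00662) and ELF3 at -0.81 ± 0.15 (adjusted p = 0.0227). OVOL2 stood at -0.27 ± 0.19 (adjusted p = 0.415), and GRHL2 was not well above background often enough to be tested. Each gene called in these lists and in those of the next paragraph kept its sign under those of the 17 settings that tested it.

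**Figure D3:**
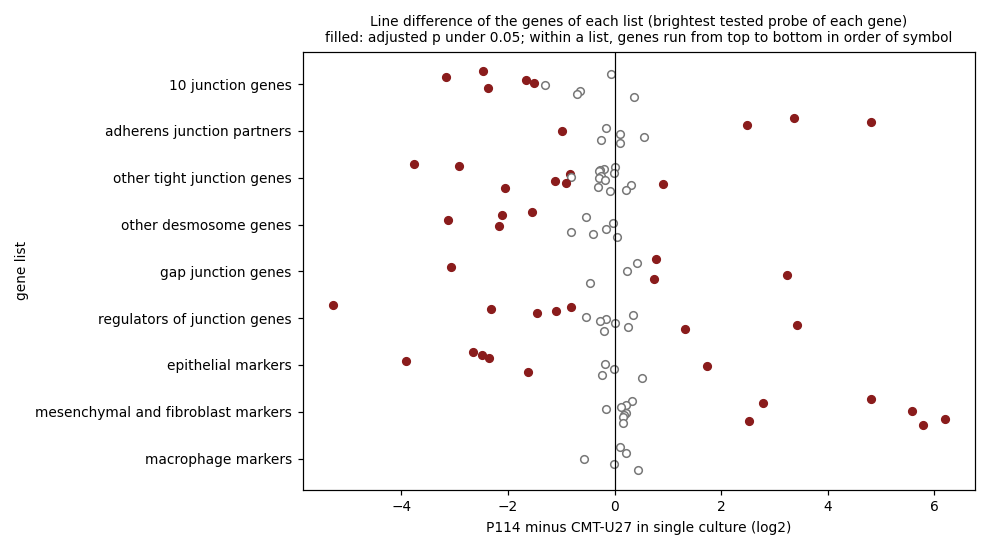
Line difference in single culture (x axis, P114 minus CMT-U27, log2) of each tested gene of 9 lists (y axis), by its brightest probe, with filled circles for an adjusted p under 0.05. The called genes of the 10 junction genes and of the desmosome list all lie left of 0, and those of the mesenchymal list all lie right of 0. The adherens partners, other tight junction genes, gap junction genes, regulators and epithelial markers have called genes on both sides.

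Some markers of cell state moved with the line difference of the junction genes, and their part in it was not tested. Of 10 tested epithelial markers, 5 were lower in P114 and 1 was higher, MUC1 (1.73 ± 0.23, adjusted p = 0.00738), with a median of -0.93. Their summed intensity was 21600 and 21500 in P114 against 124000 and 139000 in CMT-U27. EPCAM, whose protein was used in the sort of both lines, was at 12.27 and 12.40 in P114 and at 15.12 and 14.88 in CMT-U27 (-2.66 ± 0.17, adjusted p = 0.000742), and the simple keratin KRT18 was lower by a like size (-2.35 ± 0.20, adjusted p = 0.00189). Of 14 tested mesenchymal and fibroblast markers, 0 were lower and 6 were higher in P114, with VIM at 5.79 ± 0.32 (adjusted p = 0.000551). The markers not called ran from -0.16 for FAP to 0.33 for COL1A1, and the median of the list was 0.27. The summed intensity of the list was 306000 and 258000 in P114 against 8880 and 9900 in CMT-U27. In P114 most of it came from VIM and S100A4. CD44, another protein of the sort, stood at 1.45 ± 0.48 (adjusted p = 0.11). KRT8 was not analysed here.

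The genes whose pattern over the 8 channels was most like that of CDH1, by the root mean square distance of centred profiles among 10535 genes outside the 10, were FABP5 at 0.10, which encodes a fatty acid carrier, and EDN1, PLEKHA6, MAPT and EPCAM, each at 0.13. The 8 channels come from 4 arrays of 2 lines and so share their arrays.

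Co-culture with macrophages changed none of the 10 genes by the test over all probes, in either line. In limma's ratio fit 0 of the 19 probes passed in P114 and 0 in CMT-U27, where the background was 0% in each. At an unadjusted p under 0.05 there was 1 of 19 in P114, TJP1, and 2 of 19 in CMT-U27, CLDN4 and a JUP probe, where 1758 and 928 of all tested probes fell under it. The smallest adjusted p over all probes was 0.797 in P114 and 0.147 in CMT-U27. The co-culture over single culture log2 ratios of the 10 genes had a median of -0.04 in P114 and 0.04 in CMT-U27, beside 0.01 and 0.03 over all genes. Over all tested probes the ratios of the 2 P114 arrays correlated at -0.149 and those of the 2 CMT-U27 arrays at 0.0529 (Pearson's r over probes, which do not count as replicates).

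By gene, CDH1 had ratios of -0.36 and 0.13 on the P114 arrays and -0.06 and -0.12 on the CMT-U27 arrays. The P114 arrays disagreed in sign, and the 95% confidence interval ran from -0.40 to 0.17 in P114 and from -0.37 to 0.20 in CMT-U27. CLDN1 had 0.09 and -0.07 in P114 and -0.11 and -0.04 in CMT-U27, with intervals from -0.18 to 0.19 and from -0.26 to 0.11. CLDN4 was above 0 on all 4 arrays, as 11% of all tested probes were, at 0.15 and 0.02 in P114 and 0.14 and 0.23 in CMT-U27 (interval from 0.01 to 0.36 in CMT-U27, unadjusted p = 0.0445 in limma's fit, adjusted p = 1). TJP1 had 0.03 and 0.32 in P114 (unadjusted p = 0.0497 in limma's fit, adjusted p = 0.797) and 0.13 and -0.12 in CMT-U27. CLDN7 had 0.64 and -0.74 in CMT-U27, opposite on the dye-swapped arrays, and 0.09 and 0.01 in P114. CDH3 stayed between -0.10 and 0.03 on all 4 arrays.

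Signs agreed between the 2 arrays of P114 in 8 of the 19 probes and between those of CMT-U27 in 12, beside 43.3% and 50.7% of all tested probes. In 3 of the 19 probes both P114 arrays were below 0 and both CMT-U27 arrays above it, which 5.76% of all probes showed. These were DSP (-0.09 and -0.35 in P114, 0.07 and 0.06 in CMT-U27), CLDN3 (-0.01 and -0.11, 0.25 and 0.13) and the dimmer OCLN probe (-0.10 and -0.08, 0.02 and 0.05). The test of the difference between the lines did not pass for any of the 19 (adjusted p = 1 for DSP, CLDN3 and OCLN, with CMT-U27 minus P114 at 0.29, 0.25 and 0.13), and over all probes 0% passed. None of the 19 probes had an unadjusted p under 0.05 for it (0 of 19), where 821 of all tested probes did. JUP had 0.11 and -0.23 in P114 and 0.18 and 0.16 in CMT-U27, and its 6 probes were each above 0 on both CMT-U27 arrays, the lowest at 0.00 as rounded. Probes of 1 gene on the same arrays are not independent. Of all tested probes, 18221 of 28692 had a mean ratio above 0 in CMT-U27, with ratios rounded to 2 decimals. Among the other desmosome genes, 9 of 10 had a mean ratio above 0 in CMT-U27 and 0 of 10 in P114, with medians of 0.11 and -0.08, and none was called. Ratios were rounded to 2 decimals before this count, and DSG3 in P114 was then at 0. Of all genes, 7211 of 10545 had a mean ratio above 0 in CMT-U27 and 5433 of 10545 in P114, with the same rounding.

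**Figure D4:**
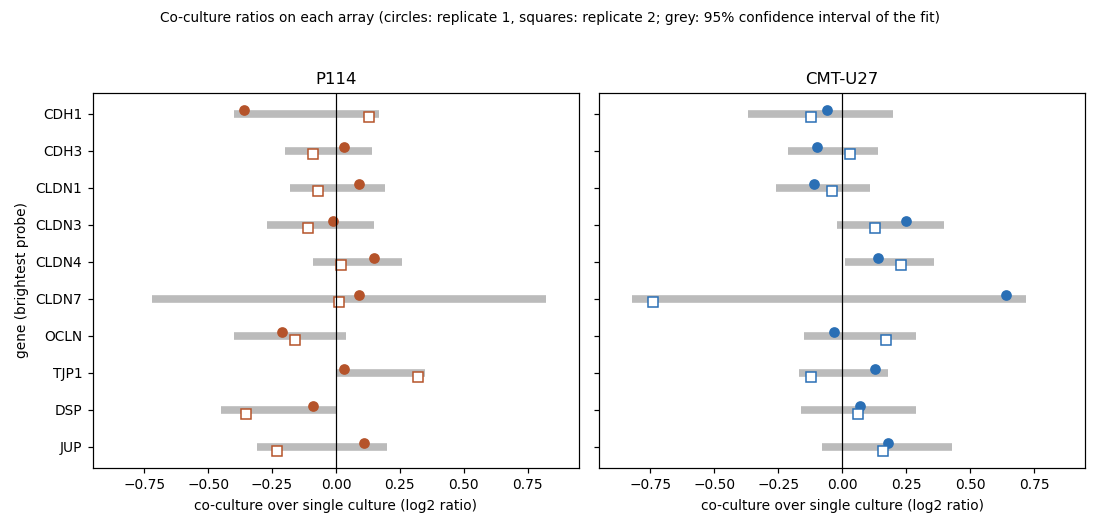
Co-culture over single culture log2 ratio (x axis) of the brightest probe of each gene on each array, P114 left and CMT-U27 right, replicate 1 as filled circles and replicate 2 as open squares, with the 95% confidence interval of the fitted mean in grey. Most points lie within 0.36 of 0, and CLDN7 in CMT-U27, at 0.64 and -0.74, is the exception.

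These ratios are relative to other probes of the same brightness, because loess centres each array along the intensity scale. With median centring instead, the median of all tested probes in CMT-U27 moved from 0.02 to 0.68, 17025 of 28692 probes were higher and 318 lower in co-culture, and 9 of the 10 junction genes were above 1.1, from CLDN4 at 1.12 to JUP at 1.64. CDH3 was then at -0.17. In P114 the median moved to 0.16, and the 10 genes ranged from -0.12 for CDH3 to 0.58 for TJP1, with none called. Which of these scalings gives the amount of RNA per cell was not tested.

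Of 19 macrophage markers on the array 5 could be tested. On P114 replicate 1 all 19 were well above background in both channels, and on the other arrays 2 to 5 were. Their summed intensity was 3070 to 3690 in single culture and 2960 to 3710 in co-culture in P114, and 3120 to 3320 and 3220 to 3390 in CMT-U27. These sums hold all 19 markers, also those too dim to be tested. How much macrophage RNA such sums could show was not tested. CD68 was well above background in every channel, with ratios of 0.19 and -0.12 in P114 and 0.16 and 0.09 in CMT-U27. CD14 had ratios of 0.15 and -0.07 in P114 and 0.07 and 0.02 in CMT-U27, and CSF1R was not well above background often enough to be tested.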

How the data were processed

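Each deposited scanner file gives the linear intensity of every spot and its local background as read by Agilent Feature Extraction (version 10.10.1.1 per the file headers, 10.7.3.1 per the submitters' processing notes). The deposited log10 ratio is Cy5 over Cy3, per the file headers, and equals the authors' table of series values (largest gap 0). It served as an alternative. Of 45220 spots an array, 1417 were controls. Intensities were corrected with normexp (offset 50) and loess, spots marked as outliers were left out, and spots of a probe were averaged. Ratios were turned by the channel labels to co-culture over single culture. Probes well above background on both arrays of a line and culture were kept (28732), of which 40 were lost to marked spots.

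limma 3.58.1 (R 4.3.3, statmod 1.5.0, version 1.17.8 of data.table) fitted the log2 ratios of both lines together, with a dye term for each probe (1 residual and 2.76 prior degrees of freedom). The lines were compared by a separate-channel fit after Aquantile normalization, with a dye term and an intraspot correlation of 0.936 (3 residual and 2.7 prior degrees of freedom). p-values were adjusted over 28692 probes. Both fits were run on simulated data with known changes, whose noise was not matched to the intraspot correlation of the arrays. There the line fit missed some true differences, and the ratio fit made some false calls. A gene that did not pass may still differ. The number of arrays limits the precision.

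Genes were named from the symbol and description columns. The P114 and CMT-U27 files carry different annotation versions, and 3 of the 19 probes are named only in the 2 CMT-U27 files. The named genes were the 10 genes with every probe, a set list of junction genes, regulators and markers, and the 5 genes most like CDH1. Other list genes past the threshold were named after their values were seen, and some genes of the lists are not reported here. Members and lists were chosen with earlier results of these data known. All 4 arrays lay on 1 slide. Python 3.11.15 with matplotlib 3.10.9 drew the figures. Alternatives were other background, normalization, filter, dye and channel settings, and each array left out.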

Additional observations from a re-analysis of the deposited data

How the results depend on the processing

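The number of probes called between the lines was 4361, and 2376 with the scanner software's processed signals, 9384 with no dye term, 10429 with a dye term for each line (added after seeing the data), 0 with no normalization between arrays, and 5230 to 20024 without an array. The lone array of a line was then assumed to vary like the others, and the intraspot correlation was kept at its main value, as with exchanged channels. Of the 10 genes, 5 were called, 3 with the processed signals (CLDN1, CLDN3 and DSP), 8 with no dye term, and 7 to 9 without an array. The opposite sign of the other TJP1 probe (-0.32) was the only reversal among the 10 genes in the line comparison. For the co-culture, 0 probes were called. In CMT-U27 this became 12 with no background correction, 1 when only probes well above background everywhere were used, 17343 with median centring, 27 with the channels of either P114 array exchanged, and 0 to 35 without an array. In P114 it became 5 with median centring, 14 with either P114 array exchanged and 0 to 115 without an array. The difference between the lines became 1 with no background correction, 12448 with median centring, 20 with P114 replicate 2 exchanged and 0 to 99 without an array. The cause was not tested. None of the 10 genes was called for the co-culture in either line except with median centring. The arrays of P114 could not be paired with those of CMT-U27, because the labels give no replicate numbers that could pair them. Within a line, both fits kept the 2 cultures of an array together, which pairs them by array.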
